A study of Mus musculus with 549 samples.

Results

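The libraries described are those of metaphyseal cortical bone from the tibiae of vehicle mice after 2 weeks of loading: 16 of the 549 samples in the series, chosen by tissue, treatment and time alone. The labels describe 17 such samples, and contralateral replicate 7 was not analysed here. Of these, 7 came from the loaded left limb and 9 from the contralateral right limb, which was not loaded. The mice were male C57BL/6J, 18 weeks old at the start, and were given saline under the skin for 8 weeks. The left tibia was then compressed at a peak of 9 N, 4 cycles per second and 1200 cycles a day, on 5 days a week under isoflurane anaesthesia, while saline was injected into the abdomen. The mice were 28 weeks old at the end, the marrow had been removed from the bone, and samples were not pooled. Groups set beside them at 2 weeks had the same loading with parathyroid hormone (PTH) as pretreatment, alendronate during loading, or both. Also set beside them were cancellous bone of vehicle mice at 2 weeks and cortical bone of vehicle mice after 1 week of loading. Cortical bone of vehicle and PTH mice that were not loaded was taken earlier, at the end of the 8 weeks of pretreatment. The comparison asks which transcripts differ between a loaded and an unloaded tibia of mice that had received neither drug. Right and left limbs of 1 animal share its circulation, so the right limb is a control within the mouse and not an unexposed animal.

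Bone adds tissue where it is strained. Osteocytes, the cells buried in the mineral, sense strain and make less sclerostin (Sost), an inhibitor of Wnt signalling, after which osteoblasts lay down collagen on the bone surface. The outer surface is covered by periosteum, a fibrous sheet of fibroblasts and bone progenitors that is continuous with tendon and ligament insertions and carries collagen types III, VI and XIV, periostin and asporin. In bulk samples, more cells of a type and more RNA per cell cannot be told apart.

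The 16 libraries held 127777 to 1851740 reads. Loaded replicates 5 and 6 stood apart from the rest in depth and in genes detected. Loaded replicate 5 had 127777 reads and 4764 genes with a read or more, and loaded replicate 6 had 509116 reads and 9505 genes. The other 14 had 848844 reads or more and 11898 to 14057 genes, and none of the 36 libraries of the other treatments in the same table had under 10000 genes (10644 to 14558). Of the 15208 genes tested, 10446 had no read in loaded replicate 5 and 5717 in loaded replicate 6, against 1357 to 3362 in the other 14. The median correlation of log2 levels with the other vehicle libraries was 0.59 for replicate 5 and 0.77 for replicate 6, and 0.81 or more for each of the rest. Both belong to the loaded limb and to the series with letters in the title codes, so the main results are given with all 7 loaded libraries and with the 5 others. In the deposited values 1 read stood for 5.63 normalised counts in loaded replicate 6. In loaded replicate 2, the next in depth at 848844 reads, it stood for 1.47. The scaling thus raised the levels of replicate 6 by more than its depth alone would, which bears on each top value it holds below.

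**Figure D1:**
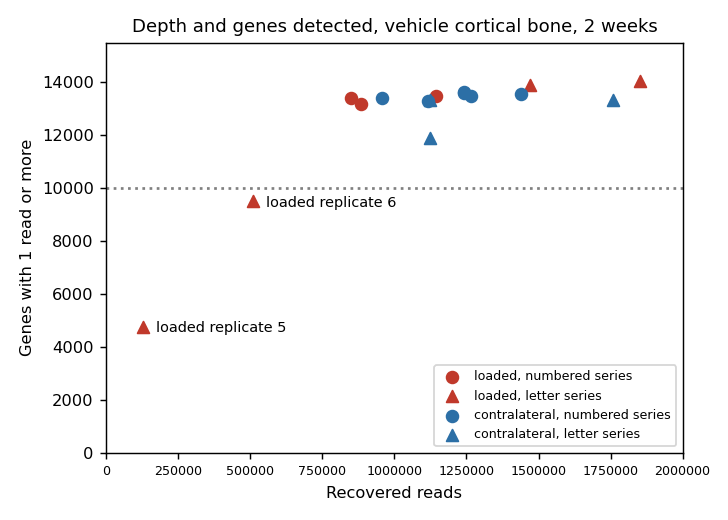
Reads recovered per library (x axis) against the number of genes with a read or more (y axis) for 7 loaded (red) and 9 contralateral (blue) libraries; circles are numbered title codes and triangles letter codes, and the dotted line is at 10000 genes. Loaded replicates 5 and 6, at 4764 and 9505 genes, lie under the line and the other 14 libraries lie above it.

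Title codes came in a numbered series (3 loaded and 6 contralateral libraries) and a letter series (4 loaded and 3 contralateral), and this was a term of each fit where both occurred. What the series stands for is not given in the sources used here. Ribosomal precursor RNA (Rn45s) took 1.92% to 6.77% of reads in the numbered series and 3.17% to 21.4% in the letter series. Genes of skeletal muscle took 0.612% to 8.31% and 0.357% to 1.08%. Bone transcripts were present throughout. The 23 osteoblast and bone matrix genes took 2.90% to 20.1% of reads, and the osteocyte genes Dmp1 and Mepe were detected in all 16 libraries. Muscle genes took more reads than the bone list in loaded replicates 2 (8.31% against 7.15%) and 4 (4.68% against 2.90%).

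No gene passed an adjusted p of 0.05 between loaded and contralateral bone in limma, the main test (0 of 15208). At an unadjusted p under 0.05, 257 genes were higher in the loaded limb and 1239 lower. That is 1.69% and 8.15% of genes tested, and the smallest adjusted p was 0.471. The balance moved with the 2 shallow libraries: 32.9% of all genes had a difference above 0 with 7 loaded libraries and 58.9% with 5, and the median log2 difference over all genes went from -0.24 to 0.08. With 5 loaded libraries 0 genes passed too (smallest adjusted p = 0.2 in limma), with 464 higher and 129 lower at an unadjusted p under 0.05, or 3.05% and 0.848% of genes. Levels below are on the log2 scale after adding 1 to the deposited normalised read count, and differences are loaded minus contralateral on that scale, ± SE, to be read against those medians.

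Count tests on the recovered reads called more. With edgeR 128 genes were higher and 1 lower in the loaded limb (0.842% and 0.00658% of genes tested), and with DESeq2 173 were higher and 1 lower. The edgeR and DESeq2 lists shared 55 genes. In 117 of the 128 genes that edgeR called higher, or 91.4%, the highest loaded library was replicate 5 or 6, as it was for 31.3% of all genes. Without those libraries edgeR called 2 genes, or 0.0132%: the tendon gene Tnmd and the secreted protein C1qtnf3. Both were among the 128. The 1 lower gene was Ptpn18, a tyrosine phosphatase, with a level of 5.38 ± 1.14 over the loaded libraries (SD, n = 7). Its contralateral level was 6.77 ± 0.60 (SD, n = 9), and the edgeR adjusted p was 0.0474.

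Among all genes, the smallest p belonged to collagen III. Col3a1, the chain of the fibrils of skin, vessel walls and periosteum, lies on chromosome 1 (45311538 to 45349706, plus strand, GRCm38). Its level in the loaded limb was 9.18 at the lowest, 9.79 at the median and 12.07 at the highest. In the contralateral limb these were 6.66, 8.52 and 9.74. The ranges overlapped, with 4 of the 7 loaded libraries above every contralateral one. The difference was 1.95 ± 0.47 with all libraries (limma adjusted p = 0.471) and 2.22 ± 0.50 with 5 loaded libraries (limma adjusted p = 0.2). Within the numbered series it was 1.72 and within the letter series 1.90.

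The promoters of Col3a1 and of asporin (Aspn) and tenomodulin (Tnmd), which are described next, are shown because these 3 connective tissue genes were among the 8 that passed when limma weighted libraries by their fit. Each runs 5′ to 3′ from 250 bases before to 50 bases after the start site annotated by RefSeq (GRCm38.p6), at chr1:45311288-45311587, chr13:49544193-49544492 and chrX:133850758-133851057, all on the plus strand. Capitals mark matches, on either strand, to the TATA box (TATAAA), the CCAAT box (CCAAT), the AP-1 site (TGACTCA) and the TEAD site (GGAATG).
Col3a1: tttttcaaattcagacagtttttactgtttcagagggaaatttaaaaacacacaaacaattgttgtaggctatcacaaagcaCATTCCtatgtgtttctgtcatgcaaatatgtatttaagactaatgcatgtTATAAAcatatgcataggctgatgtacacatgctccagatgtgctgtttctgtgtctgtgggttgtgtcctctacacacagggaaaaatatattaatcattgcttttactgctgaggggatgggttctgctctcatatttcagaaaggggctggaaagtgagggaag
Aspn: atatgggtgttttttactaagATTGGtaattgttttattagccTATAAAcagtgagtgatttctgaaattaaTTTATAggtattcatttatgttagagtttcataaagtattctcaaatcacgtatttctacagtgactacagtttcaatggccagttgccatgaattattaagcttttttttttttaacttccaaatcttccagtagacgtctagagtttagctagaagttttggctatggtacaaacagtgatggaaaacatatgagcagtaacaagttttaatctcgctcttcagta
Tnmd: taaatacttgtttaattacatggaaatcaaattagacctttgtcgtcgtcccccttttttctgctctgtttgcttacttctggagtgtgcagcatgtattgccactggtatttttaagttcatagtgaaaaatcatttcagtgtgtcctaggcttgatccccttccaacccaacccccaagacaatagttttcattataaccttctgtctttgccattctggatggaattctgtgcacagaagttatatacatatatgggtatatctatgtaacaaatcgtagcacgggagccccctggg
Col3a1 held 1 TATA and 1 TEAD match, Aspn held 2 TATA matches and 1 CCAAT match, and Tnmd held none of the 4. Of 32851 promoters of the same length, 13.6% held the TATA letters, 37.4% CCAAT, 14.7% GGAATG, and TGACTCA was in 1709 of them. A match is a description of letters and not of a bound site.

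Other genes of fibrous connective tissue lay on the same side as Col3a1. Col6a3, a chain of the beaded collagen VI filaments around cells, was the one gene of 15208 with every loaded library above every contralateral library (0.00658% of genes tested). It ran from 7.35 through a median of 8.53 to 11.92 under load, while contralateral bone ran from 6.32 through 7.00 to 7.35, so that the groups all but touched. The top value was the shallow replicate 6, and the difference was 1.72 ± 0.42 with all libraries and 1.14 ± 0.37 with 5 (limma adjusted p = 0.471 and 0.833). Among 15208 genes complete separation can also arise by chance, and how many genes that would give was not tested.

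Aspn, a small proteoglycan of periosteum and periodontal ligament, ran from 3.52 through 6.84 to 9.60 under load, while contralateral bone ran from 3.88 through 5.41 to 6.54. The lowest value of all belonged to the shallow loaded replicate 5, and 4 of the other 6 loaded libraries lay above every contralateral one. The difference was 1.34 ± 0.57 with all and 2.12 ± 0.54 with 5 loaded libraries (limma adjusted p = 0.477 and 0.414).

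Tnmd, a membrane protein of mature tenocytes, stood at 7.22, 3.93, 5.56, 7.65 and 3.78 in loaded replicates 2, 3, 4, 7 and 8 and at 0 in replicates 5 and 6. Contralateral libraries ran from 0.00 through 3.05 to 3.79. In reads, loaded replicates 2, 4 and 7 had 101, 50 and 332, and each contralateral library had 12 or fewer. Replicates 2, 4 and 7 were thus clear of the contralateral range while replicates 3 and 8 were at its edge. The limma difference was 1.56 ± 0.75 with all and 2.94 ± 0.67 with 5 loaded libraries (adjusted p = 0.498 and 0.2), and the edgeR adjusted p was 0.00328 and 0.00919.

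C1qtnf3, a secreted protein of the C1q and TNF family made by cartilage and fibroblasts, had 17, 188 and 8 reads in loaded replicates 2, 7 and 8 and 0 in the other 4. Of the 9 contralateral libraries 1 had a read, a single one in replicate 3. Detection in the loaded limb was therefore limited to 3 of 7 mice, and no level can be told from 0 in the rest. The limma difference was 1.93 ± 0.71 with all and 2.79 ± 0.73 with 5 loaded libraries (adjusted p = 0.471 and 0.414), and the edgeR adjusted p was 0.00276 and 0.012. With contralateral bone at or near 0, such a difference depends on the 1 added to each value and is no bound.

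Itgbl1, a secreted integrin-beta-like protein, and Matn4, an adaptor of extracellular filaments, had every one of the 5 deeper loaded libraries above every contralateral library. Itgbl1 stood at 4.91 ± 0.86 (SD, n = 5) in those 5, while contralateral bone had 2.68 ± 1.18 (SD, n = 9), and the fitted difference was 2.31 ± 0.53 (limma adjusted p = 0.2). Matn4 stood at 4.64 ± 0.82 (SD, n = 5), while contralateral bone had 1.96 ± 1.18 (SD, n = 9), and the fitted difference was 2.70 ± 0.62 (limma adjusted p = 0.2). With all 7 loaded libraries the differences were 1.49 ± 0.57 and 2.04 ± 0.64, and replicate 5 had no read of either gene. In all, 8 genes had every deeper loaded library above every contralateral one and 1 every one below, or 0.0526% and 0.00658% of genes tested. Such counts can arise by chance among so many genes, which was not tested, so separation is given as a description only. The others higher were Col6a3, AA414768, Wdr19, Cib2, the TGF-beta receptor Tgfbr2 and Nr2c1, and the lower one was C730036E19Rik. Itgbl1, Matn4 and these others except Col6a3 and C730036E19Rik are outside the naming rule and were chosen after their values were seen.

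Col14a1, a collagen that ties fibrils together in tendon and skin, had a difference of 1.25 ± 0.58 with all and 2.12 ± 0.51 with 5 loaded libraries. Sfrp2, a secreted Wnt modulator of fibroblasts, had 1.75 ± 0.75 and 2.90 ± 0.71. Postn, the matrix protein periostin named for periosteum, had 1.19 ± 0.45 and 1.21 ± 0.47, with levels of 6.44 to 9.19 under load and 5.47 to 7.57 in the other limb. None passed with limma, whichever set was used (adjusted p from 0.301 to 1). When limma weighted libraries by their fit, 8 genes passed and all were higher in the loaded limb: Col3a1, Aspn, Itgbl1, Col14a1, Matn4, Tnmd, the long noncoding RNA Meg3 and the ciliary transport protein Ift88. That is 0.0526% of genes tested, and 6 of the 8 were also edgeR calls with all libraries.

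**Figure D2:**
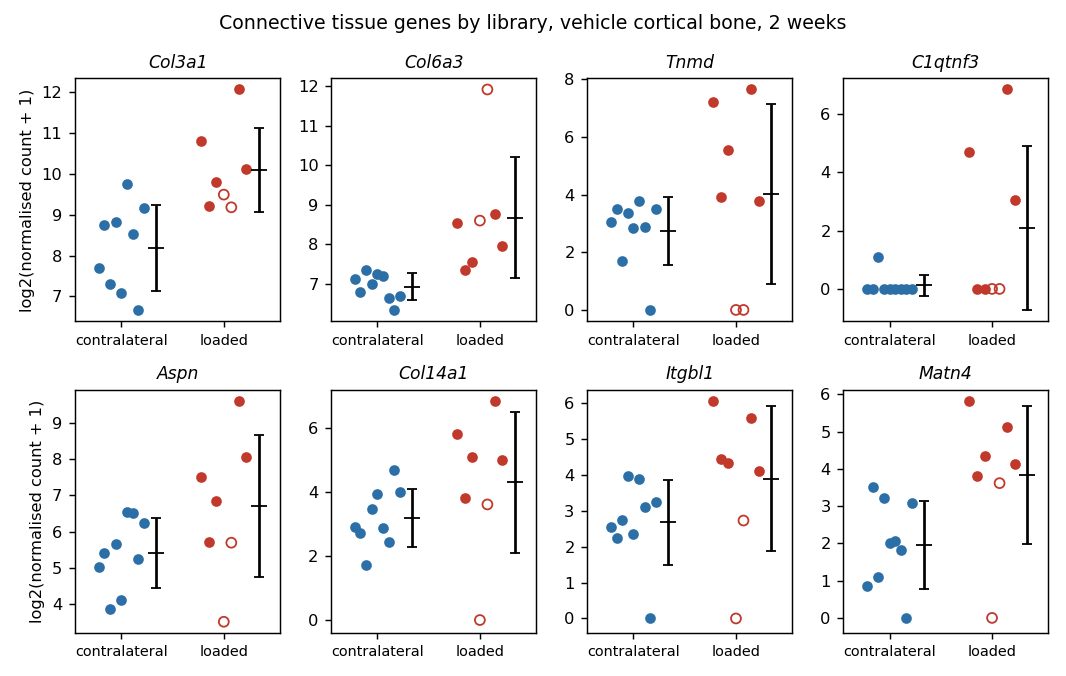
Level of 8 connective tissue genes, as log2 of the normalised count plus 1 (y axis), in each contralateral (blue, n = 9) and loaded (red, n = 7) library; open circles are loaded replicates 5 and 6, and black bars are the mean ± SD of all libraries of a limb. Loaded libraries of Col6a3 lie from 7.35 up, at or over the contralateral range, and the open circles are at 0 for Tnmd.

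Within mice the same genes varied. The labels do not name the mouse of a library, so mice were inferred from runs of title codes. On that inference 5 mice had both limbs, and their loaded libraries are replicates 2, 3, 5, 7 and 8. Col3a1 differed between the limbs of these mice by 2.05, 0.37, -0.25, 3.54 and 3.47, in that order. Tnmd differed by 3.72, 0.58, -3.79, 4.77 and 3.78, and Col6a3 by 1.75, 0.35, 1.40, 2.13 and 1.63. The mouse of replicate 3 had small differences in all 3 genes. The mouse of replicate 5, the shallowest library, had negative ones in Col3a1 and Tnmd. The mouse of loaded replicate 8 was paired with contralateral replicate 9, which had the fewest genes detected of its limb (11898). That library had no Tnmd read and the lowest contralateral Col3a1 level (6.66), so the large differences of this mouse in both genes rest partly on it. A fit on these 5 mice with the animal as a fixed term called 0 genes, with 311 at an unadjusted p under 0.05.

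The list of fibrous matrix and TGF-beta response genes had 35 members, all tested. Like the other lists it was chosen with earlier results of these data known, and the set of 5 loaded libraries after values were seen. Its shares beside those of all genes are thus descriptions and not independent evidence. With 7 loaded libraries 16 of 35 had a difference above 0, with a median of -0.06 where all genes had -0.24. At an unadjusted p under 0.05, 7 were higher and 0 lower, where 1.69% and 8.15% of all genes were. With all libraries edgeR called 5 members higher, beside 0.842% of all genes, and without the shallow libraries it called 0 members. With 5 loaded libraries 33 of 35 lay above 0 (94.3% against 58.9% of all genes), with a median of 0.75 against 0.08, and 14 were higher and 0 lower at an unadjusted p under 0.05 (3.05% and 0.848% of all genes). In limma without library weights no member passed on either set. Besides those above, Thbs2, an anti-angiogenic matrix glycoprotein, had 0.90 ± 0.50 with all and 1.42 ± 0.48 with 5 loaded libraries. Fibronectin (Fn1) had 0.47 ± 0.33 and 0.84 ± 0.31, and osteoglycin (Ogn) 0.85 ± 0.45 and 1.12 ± 0.45. Fibrillin 1 (Fbn1) changed sign, with -0.12 ± 0.55 and 0.83 ± 0.31, and Col16a1 had 1.63 ± 0.46 and 1.01 ± 0.41. These members were named after their values were seen. Biglycan (Bgn) and Tgfbi were the 2 members under 0 with 5 loaded libraries, at -0.38 ± 0.32 and -0.04 ± 0.36.

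The 11 genes of tendon, ligament and periosteum had a median difference of 1.00 with all and 1.46 with 5 loaded libraries, and 8 and 9 of 11 lay above 0 (32.9% and 58.9% of all genes). Before adjustment, at p under 0.05, 4 and 8 of them were higher (1.69% and 3.05% of all genes) and none lower, and none passed in limma without library weights. Mkx, a transcription factor of tendon, had 1.31 ± 0.51 with all and 1.78 ± 0.53 with 5 loaded libraries. The small leucine-rich proteoglycans Kera and Fmod had 1.00 ± 0.42 and 1.17 ± 0.58 with all, and 1.36 ± 0.45 and 1.54 ± 0.57 with 5. Scx, the transcription factor that defines tendon progenitors, changed sign, with -0.31 ± 0.61 and 0.37 ± 0.62. Gli1, a mark of hedgehog-responsive periosteal cells, had -0.97 ± 0.58 and -0.36 ± 0.60. Summed over the list, these genes took 0.0286% to 0.159% of reads in the 5 deeper loaded libraries and 0.00678% to 0.0397% in contralateral ones. Loaded replicate 5 had 0.0493%, and loaded replicate 6 had 0.00196%, less than any contralateral library. Mkx had 5 reads or fewer in each vehicle library and no read in 7 of 9 contralateral libraries. Kera had 10, 8 and 2 reads in loaded replicates 2, 7 and 8, none in the other loaded libraries and at most 2 in a contralateral one. With so few reads the size of both differences depends on the processing. Over the settings run, Mkx ran from 0.63 to 3.70 and Kera from 0.49 to 3.64.

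No skeletal muscle gene passed in limma without library weights on either set. Of 19 muscle genes 17 had a difference above 0 with all and 18 with 5 loaded libraries (32.9% and 58.9% of all genes), with medians of 0.75 and 0.76. At an unadjusted p under 0.05, 2 and 0 were higher (1.69% and 3.05% of all genes) and none lower. Mylpf, a myosin light chain, had 1.37 ± 0.77 with all and 1.25 ± 0.84 with 5, and Myoz1, of the muscle Z-disc, 1.87 ± 0.86 and 0.76 ± 0.82. The list took 0.397% to 8.31% of reads in loaded libraries and 0.357% to 5.91% in contralateral ones, and no library lacked any of its genes except loaded replicate 5, which had no read of Cox6a2. Loaded replicate 7, the highest for Col3a1 and Tnmd, had 0.767%, and loaded replicate 2, the next highest for both, had 8.31%, the most of any library. The part of muscle or tendon tissue on the bone in the fibrous gene differences was not tested.

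No osteoblast gene passed in limma on either set. Of 23 osteoblast and bone matrix genes 5 had a difference above 0 with all loaded libraries and 10 with 5, with medians of -0.38 and -0.13 against -0.24 and 0.08 over all genes, of which 32.9% and 58.9% lay above 0. At an unadjusted p under 0.05, 2 were higher and 4 lower with all, beside 1.69% and 8.15% of all genes. With 5 loaded libraries 1 was higher and 0 lower, beside 3.05% and 0.848% of all genes. Col1a1, the main collagen of bone, ran from 13.32 through 14.87 to 18.24 under load, while contralateral bone ran from 14.03 through 15.10 to 16.38. Loaded replicates 6 and 8 lay above the contralateral range and replicate 4 below it, so that the loaded limb held both the highest and the lowest library. The difference was -0.06 ± 0.41 (limma adjusted p = 0.964) or -0.37 ± 0.48 with 5 loaded libraries. Both estimates lay within 1 SE of 0, and no difference was detected. Vehicle libraries had 2786 to 97793 reads of Col1a1, and its level under load had an SD of 1.58 (n = 7).

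Bglap (osteocalcin) had a difference of -0.55 ± 0.47 with all and -0.35 ± 0.49 with 5 loaded libraries. Alpl, the phosphatase needed for mineralisation, had -0.51 ± 0.47 and 0.36 ± 0.39, where the shallow replicate 5 stood at 3.52. Sp7 (osterix), the transcription factor of committed osteoblasts, had -1.31 ± 0.54 and -0.62 ± 0.51, and Fkbp11, a folding enzyme of the secretory pathway, -1.74 ± 0.64 and -0.35 ± 0.51. Spp1 (osteopontin), an acidic protein of mineralised matrix, had 0.95 ± 0.37 and 0.33 ± 0.34. None of these passed (limma adjusted p from 0.471 to 1).

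Mmp13, the collagenase of osteoblasts and hypertrophic cartilage, was the osteoblast gene with the smallest p. It ran from 9.65 through 10.22 to 12.25 under load, while contralateral bone ran from 8.48 through 9.38 to 9.98. Only the 2 lowest loaded libraries lay within the contralateral range. The difference was 1.10 ± 0.34 with all (limma adjusted p = 0.471, DESeq2 adjusted p = 0.0273) and 0.74 ± 0.34 with 5 loaded libraries (limma adjusted p = 1).

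No osteocyte gene passed in limma on either set. Of 16 tested, 5 had a difference above 0 with all and 11 with 5 loaded libraries (medians -0.30 and 0.15). These shares of 31.3% and 68.8% lay near the 32.9% and 58.9% of all genes. With all, 1 was lower at an unadjusted p under 0.05, beside 8.15% of all genes. Sost ran from 0.00 through 5.88 to 8.88 under load, while contralateral bone ran from 4.49 through 5.74 to 6.80. Its lowest and highest values were both from shallow libraries, replicates 6 and 5, and the 5 others, at 5.66 ± 0.50 (SD, n = 5), lay within the contralateral range. The difference was -0.46 ± 0.61 with all and -0.18 ± 0.45 with 5. Dmp1 and Mepe, matrix proteins of osteocytes, had 0.12 ± 0.44 and -0.25 ± 0.33 with all, and 0.16 ± 0.40 and -0.39 ± 0.32 with 5. Kcnk2, a mechanically gated potassium channel, had -1.37 ± 0.50 with all and -0.33 ± 0.32 with 5. Tnfsf11 (RANKL), which drives osteoclast formation, had at most 4 reads in a library, and its decoy receptor Tnfrsf11b changed sign between the sets, with -0.21 ± 0.58 with all and 0.46 ± 0.58 with 5 loaded libraries.

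**Figure D3:**
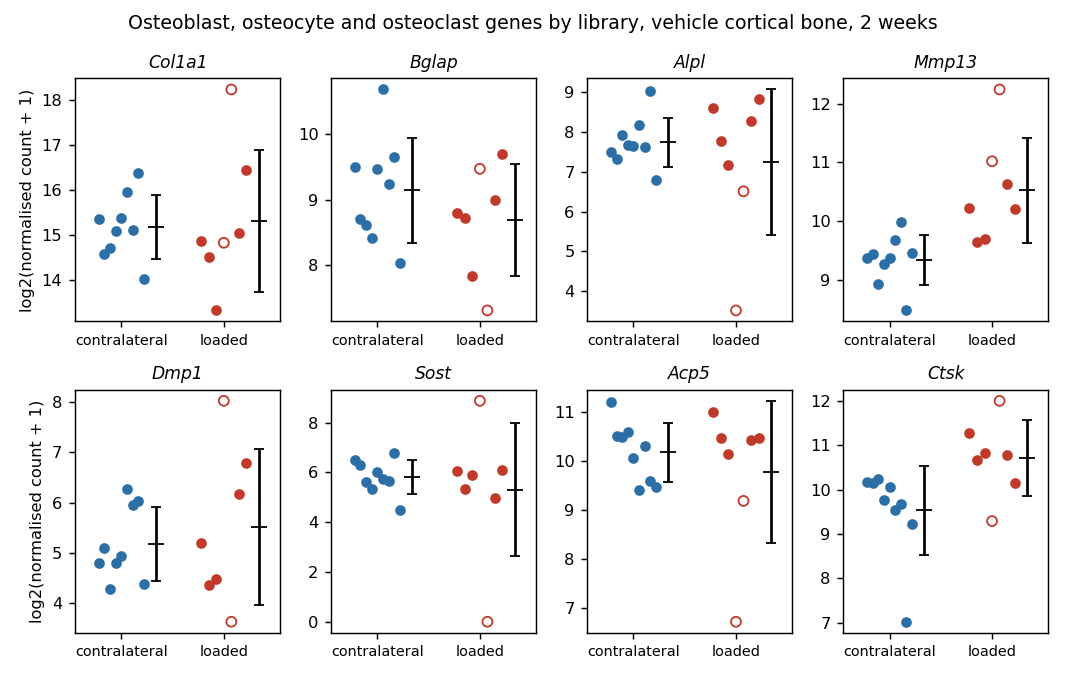
Level of 8 osteoblast, osteocyte and osteoclast genes, as log2 of the normalised count plus 1 (y axis), in each contralateral (blue, n = 9) and loaded (red, n = 7) library; open circles are loaded replicates 5 and 6, and black bars are the mean ± SD of all libraries of a limb. The limbs overlap in each panel, and the open circles hold both ends of the loaded range of Sost, at 8.88 and 0.00.

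No osteoclast gene passed in limma on either set. Of 17 tested, 11 had a difference above 0 with all and 15 with 5 loaded libraries, with medians of 0.25 and 0.47, where 32.9% and 58.9% of all genes lay above 0. Before adjustment, at p under 0.05, 2 were higher and 0 lower on both sets (1.69% and 3.05% of all genes were higher). Ctsk, the protease that digests bone collagen, ran from 9.29 through 10.78 to 12.01 under load, while contralateral bone ran from 7.02 through 9.77 to 10.24. Of the loaded libraries 5 lay above every contralateral one. The difference was 1.27 ± 0.43 with all and 1.25 ± 0.46 with 5 loaded libraries (limma adjusted p = 0.471 and 1), 1.00 within the numbered series and 1.82 within the letter series. Acp5, the tartrate-resistant phosphatase used to stain osteoclasts, had -0.25 ± 0.36 and 0.34 ± 0.32, and Nfatc1, the master transcription factor of the lineage, 0.45 ± 0.21 and 0.33 ± 0.18. Slc9b2, a sodium and proton exchanger, had 0.01 with all and 0.99 ± 0.36 with 5.

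In the Wnt pathway 15 of 34 genes had a difference above 0 with all and 26 with 5 loaded libraries, with medians of -0.07 and 0.32, where 32.9% and 58.9% of all genes lay above 0. At an unadjusted p under 0.05, 2 were higher and 1 lower with all (1.69% and 8.15% of all genes), and 4 and 0 with 5 (3.05% and 0.848%). Beside Sfrp2, the 4 were Dkk3, a secreted protein of the Dickkopf family, the ligand Wnt5a and the feedback target Axin2. With all and with 5 loaded libraries Dkk3 had -0.26 ± 0.63 and 1.16 ± 0.47, Wnt5a 0.37 ± 0.57 and 1.22 ± 0.55, and Axin2 0.63 ± 0.49 and 1.14 ± 0.51, from 0 to 6 reads in a library. Wnt1 and Wnt7b, ligands that build bone, had at most 2 reads, so that a difference in either was not detectable at this depth. Sfrp4, an inhibitor, was an edgeR call with all libraries (adjusted p = 0.0145), yet its level was 10.83 in the shallow replicate 6 and 4.78 ± 0.57 (SD, n = 5) in the deeper loaded libraries, against 4.56 ± 0.72 (SD, n = 9) in contralateral bone. Its difference with 5 was 0.24 ± 0.42.

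Vegfa, the main growth factor of vessels, also had its top values in the shallow libraries. It had 11.32 in replicate 6 and 8.81 in replicate 5, and 5.58 ± 0.67 (SD, n = 5) in the other loaded libraries against 4.97 ± 0.73 (SD, n = 9) in contralateral bone. Its difference was 1.66 ± 0.51 with all libraries (edgeR adjusted p = 0.00235) and 0.56 ± 0.38 without them (limma adjusted p = 1).

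The other lists held no gene past the threshold in limma without library weights on either set, and their counts above 0 are to be read against 32.9% and 58.9% of all genes. Among 27 genes of IGF, BMP and FGF signalling, 7 and 17 lay above 0 with all and with 5 loaded libraries, which is 25.9% and 63.0%, and Igf1, a growth factor of osteoblasts, had 0.65 ± 0.26 and 0.80 ± 0.26. Of 21 collagen processing genes 5 and 15 lay above 0, and Plod1, a lysyl hydroxylase, had -1.08 ± 0.52 and -0.16 ± 0.39. Of 24 matrix proteases and inhibitors 10 and 20 lay above 0, and Timp1, an inhibitor of matrix proteases, had 0.28 ± 0.32 and 0.09 ± 0.29. Chondrocyte and cartilage genes lay above 0 in 9 and 14 of 19. At an unadjusted p under 0.05, 1 was higher and 1 lower with all (1.69% and 8.15% of all genes), and 2 and 1 with 5 (3.05% and 0.848%). Col10a1, the collagen of hypertrophic cartilage, had 2.49 ± 0.79 with 5. Over 35 processing settings its difference ran from 0.66 to 3.28. Cytl1 and Col11a2, also among the smallest p of this list, went the other way, from -3.17 to -0.16 and from -2.18 to -0.27. Among 16 immediate early genes 8 and 11 lay above 0, where Fos had 0.46 ± 0.53 and 0.94 ± 0.47 and Jun 0.83 ± 0.34 and 0.54 ± 0.33. Ptgs2, the inducible cyclooxygenase, did not pass the filter on low values. The 15 neutrophil genes had medians of -0.24 and -0.52, with 3 and 1 above 0, and took 1.51% to 4.72% of reads in loaded and 1.98% to 4.01% in contralateral libraries.

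**Figure D4:**
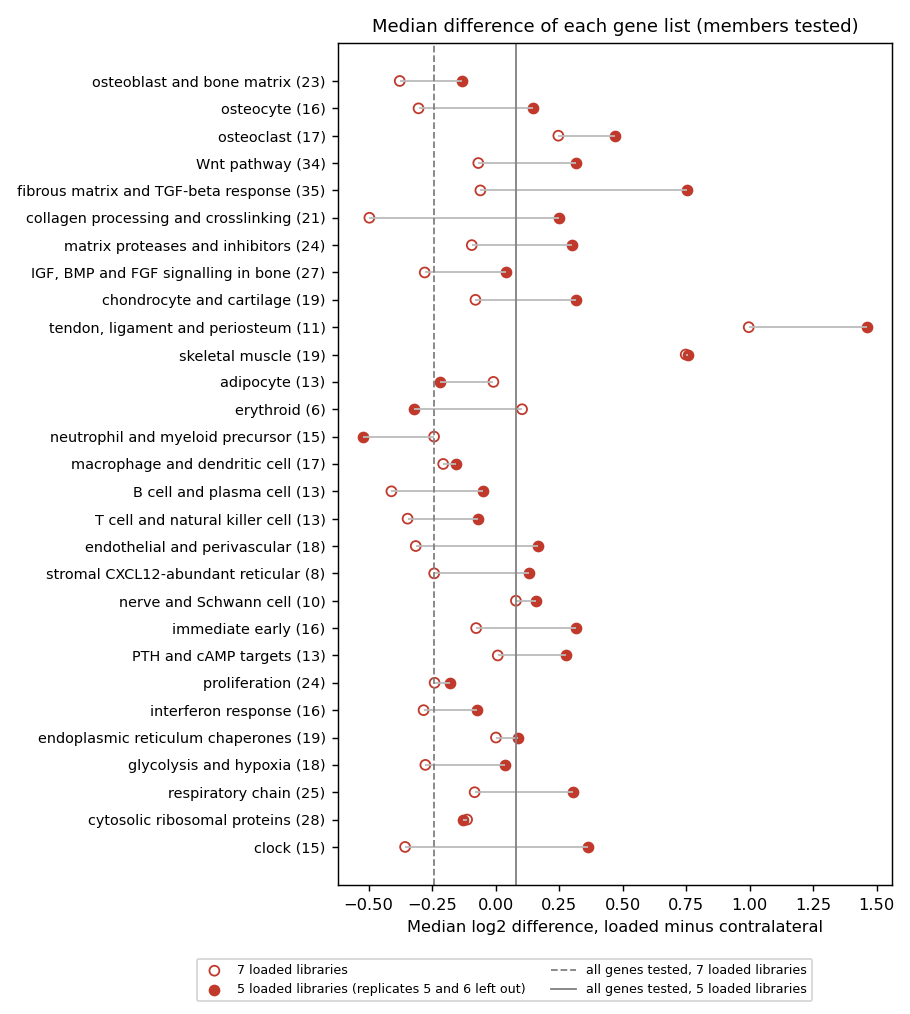
Median log2 difference, loaded minus contralateral (x axis), over the tested members of 29 gene lists (y axis, number tested in brackets); open circles use 7 loaded libraries and filled circles 5, and the dashed and solid grey lines are the medians of all 15208 genes on the same 2 sets, at -0.24 and 0.08. Tendon, ligament and periosteum genes reach 1.00 and 1.46, and fibrous matrix genes -0.06 and 0.75.

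The remaining genes among the 10 of smallest p in limma were Atg14, Ptpn18, H2afz, Uprt, C730036E19Rik, Snx8, Pcdhga10 and 2610008E11Rik. Of these, 6 had a negative difference. Atg14, of autophagosome formation, had -1.94 ± 0.48 with all and -0.80 ± 0.31 with 5 loaded libraries, and no read in replicates 5 and 6. Uprt had 2.24 ± 0.57 with all and 0.69 ± 0.29 with 5, with 43 reads in replicate 5, at most 5 in any other loaded library and 0 in each contralateral one. H2afz, Snx8 and 2610008E11Rik had between -2.13 and -1.83 with all and between -0.81 and -0.64 with 5. Pcdhga10, a protocadherin, had 2.08 ± 0.57 and 0.93 ± 0.45. Each of these 8 genes kept its sign and lost at least some size without the shallow libraries.

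Whether the loading difference of vehicle mice was that of the other treatments was tested in the same fit. For PTH, alendronate or both against vehicle, limma called 0 of 15208 genes each, with 777, 788 and 915 under 0.05 before adjustment, and none passed in edgeR or with library weights. Without the shallow libraries 0 passed too, with 301, 621 and 658 under 0.05 before adjustment. Of these genes the loading difference in PTH minus that in vehicle mice was above 0 in 682 and below 0 in 95 with all, and in 159 and 142 without them. For alendronate minus vehicle these were 581 and 207, and 196 and 425, and for both drugs together 788 and 127, and 375 and 283. These 3 tests share the vehicle libraries and are not independent. The 3 genes of smallest p against PTH were Adamts20, Slc22a13b-ps and Zim1, against alendronate C730036E19Rik, Gm13490 and Nat14, and against both Lingo3, 9430083A17Rik and Golga7b. None of the 9 had more than 18 reads in a vehicle library. Lingo3 had the largest difference of the 9, at 4.28 ± 0.98 (limma adjusted p = 0.728), from -0.84 in vehicle and 3.44 in PTH-alendronate mice.

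The loading differences of 3 of the leading genes stood side by side as follows, each treatment against its own contralateral limbs. Col3a1 had 1.95 ± 0.47 in vehicle, 2.61 ± 0.47 in PTH (limma adjusted p = 0.0107), 1.38 ± 0.53 in alendronate and 1.25 ± 0.61 in PTH-alendronate mice. C1qtnf3 had 1.93 ± 0.71, 3.65 ± 0.72 (limma adjusted p = 0.0107), 1.38 ± 0.81 and 2.28 ± 0.93 in that order. Aspn had 1.34 ± 0.57, 2.40 ± 0.58, 1.78 ± 0.65 and 1.98 ± 0.75. With 5 loaded libraries the vehicle values were 2.22 ± 0.50 for Col3a1, 2.79 ± 0.73 for C1qtnf3 and 2.12 ± 0.54 for Aspn. All 3 genes lay above 0 in the 4 treatments, as did 58.8% of all genes in PTH, 51.0% in alendronate and 60.4% in PTH-alendronate mice. Mean levels of Col6a3 were 8.26 loaded and 6.92 contralateral in PTH mice, and 8.13 and 6.60 in alendronate mice. In PTH-alendronate mice they lay closer together, at 7.72 and 7.51. The differences between treatments did not pass. With limma PTH mice had 8 genes past the threshold, or 0.0526%, and the other drug groups 0. With edgeR PTH mice had 4 higher (0.0263%), alendronate mice 3 higher (0.0197%) and PTH-alendronate mice 57 higher and 10 lower (0.375% and 0.0658%). Fibrous matrix genes had a median of 1.18 in PTH, 0.81 in alendronate and 0.49 in PTH-alendronate mice.

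At 1 week, in a table the authors normalised separately, limma called 0 of 14798 genes in vehicle mice (986 with p under 0.05 before adjustment) and edgeR 75. Of the 4 loaded libraries there, replicate 3 had 14397 reads. With the libraries under 10000 genes left out, that one among them, 19 genes were higher and 1 lower, or 0.128% and 0.00676% of genes. The 20 genes included Col3a1 (3.92 ± 0.80), Tnmd (3.89 ± 0.83), C1qtnf3 (4.41 ± 0.88), Kera and Thbs2. Of them, 17 had a difference above 0 at 2 weeks with all loaded libraries and 19 with 5, beside 32.9% and 58.9% of all genes. The 1 lower gene at 1 week was Itgam (-1.23 ± 0.23), for which a value above 0 is the opposite direction. With all libraries at 2 weeks, 5 of the 20 had an unadjusted p under 0.05 in limma, beside 1.69% higher and 8.15% lower of all genes. edgeR called 3 of the 20 at 2 weeks, beside 0.848% of all genes. The fibrous list had a median of 1.35 and the tendon list of 2.70 at 1 week on that set, beside 0.75 and 1.46 at 2 weeks with 5. Skeletal muscle genes had a 1-week median of 2.11 on that set, with 19 of 19 above 0 beside 47.3% of all genes, and their part in the other differences was not tested. The difference between weeks was not tested.

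In cancellous bone of vehicle mice at 2 weeks, limma and edgeR each called 0 of 14913 genes, and 522 had p under 0.05 before adjustment in limma. Fibrous matrix and tendon genes had medians of -0.10 and 0.03 there, and Col3a1 had 0.44 ± 0.76. Muscle genes had a median of 1.43. A contralateral library there had 52803 reads. Without the libraries under 10000 genes 0 genes passed, with 655 before adjustment. The medians were then -0.09 for fibrous matrix, 0.22 for tendon and 1.79 for muscle genes, and Col3a1 had 0.80 ± 0.74. Before loading, left and right cortical bone of vehicle and PTH mice, fitted together over 16 libraries, differed in 0 of 14249 genes by either tool. In limma 509 had p under 0.05 before adjustment, with medians of -0.07 for fibrous matrix, -0.38 for tendon and -0.05 for muscle genes, and Col3a1 had 0.06 ± 0.36. Without 1 library under 10000 genes the medians were 0.00, 0.14 and 0.62 in that order. The difference between cortical and cancellous bone was not tested.

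**Figure D5:**
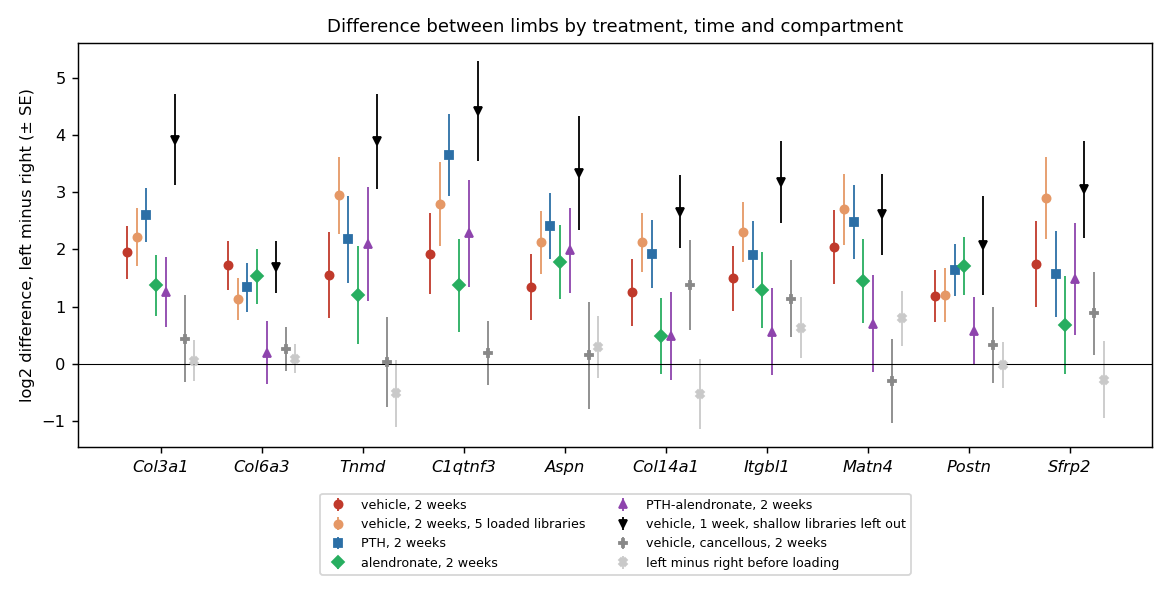
Log2 difference between left and right limb ± SE (y axis) of 10 connective tissue genes in vehicle cortical bone at 2 weeks with 7 and with 5 loaded libraries, in the other treatments at 2 weeks, in vehicle cortical bone at 1 week, in vehicle cancellous bone at 2 weeks and in cortical bone of vehicle and PTH mice before loading. The 1-week points leave out libraries under 10000 genes, while those of the other treatments, cancellous bone and bone before loading use all libraries. Col3a1 lies at 1.95 in vehicle mice, between 1.25 and 2.61 in the other treatments, and at 0.44 and 0.06 in cancellous bone and before loading; C1qtnf3 was not tested before loading.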

How the data were processed

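Libraries were made with a 3' kit, per the labels. Trimmomatic 0.39, STAR, edgeR and mm10 are named in the submitters' processing notes. The deposited values are a normalised signal, the authors' normalised read counts. In each library they are whole multiples of 1 step (100% within 0.01), so reads were recovered by division, and steps followed median-of-ratios scaling within a table. The 4 entries of a table that name no gene held at most 0.177% of reads and were dropped.

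Differences were tested with limma 3.58.1 (R 4.3.3) on log2(value + 1) with a variance trend. All 52 libraries of the cortical table at 2 weeks shared 1 fit, with the code series as a term and the animal, inferred from runs of title codes, as a random block (correlation 0.0298 over 2000 genes, statmod 1.5.0). Genes had a CPM of 1 or more in at least 4 libraries. The threshold was a Benjamini-Hochberg adjusted p of 0.05. edgeR 4.0.16 (quasi-likelihood) and DESeq2 1.42.0 on the recovered reads had no animal block. Models were tested on simulated data.

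As inferred from runs of title codes, vehicle libraries come from 11 mice, 5 with both limbs. The p-values take libraries of a group as separate animals. No library was a repeat of another in its limb (chi-square over its degrees of freedom 4.14 or more). Named genes were the 10 of smallest p, the 4 of smallest p in each list described, 17 genes set by name, and the 3 of smallest p in each test between treatments. Others were chosen after their values were seen, as was leaving out libraries under 10000 genes. Members and lists were chosen with earlier results of these data known. Molecular identifiers are not given in the sources used here, so depth covers counting error only. Positions are from GENCODE M21.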

Additional observations from a re-analysis of the deposited data

Results flagged for a closer look

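Levels of 27 genes, reads and genes detected were examined per limb, 58 groups in all. A library far from the others of its limb was flagged, and 7 flags resulted. A chance rate of about 1 in 20 groups would hold for independent groups. These groups share libraries, so the count of flags cannot be set against that rate. Of the 7 flags, 3 were on loaded replicates 5 and 6. Col6a3 stood at 11.92 in loaded replicate 6, with the next library at 8.77. Matn4 was at 0.00 in loaded replicate 5, with the next at 3.62, and Acp5 at 6.72 in the same library, with the next at 9.18.

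In contralateral bone, replicate 9 had 11898 genes detected, with the next library at 13296, and Rn45s took 21.4% of its reads. In that library Ctsk was at 7.02, with the next at 9.22, and Itgbl1 at 0.00, with the next at 2.25. C1qtnf3 stood at 1.10 in contralateral replicate 3, from a single read, and at 0 in the other 8. Without contralateral replicate 9, limma called 0 genes, with a smallest adjusted p of 0.602.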

How the results depend on the processing

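The count of genes past the threshold in vehicle cortical bone at 2 weeks was 0 as reported. It was 129 with edgeR, 174 with DESeq2 (which gave no adjusted p for 2757 genes), 8 with library weights and 2 with edgeR without the shallow libraries. Pseudocounts of 0.25 and 4, no filter, a CPM minimum of 5, TMM or quantile scaling, no animal block, no series term, either series alone, vehicle libraries alone and mice with both limbs gave 0. Leaving out each library in turn gave 0 to 0, with 802 (without loaded replicate 5) to 2214 genes at an unadjusted p under 0.05. The median difference of all genes was -0.31 with TMM and 0.01 with quantile scaling. At 1 week the count was 0 as reported, 75 with edgeR, 107 with library weights, 20 without libraries under 10000 genes or under 100000 reads (the same 9 libraries), 68 with edgeR without those, and 0 to 3 with 1 library left out (3 without loaded replicate 1, 1 without loaded replicate 2 or 4). The counts for the tests between treatments, cancellous bone and bone before loading were 0 under every alternative run. Of 96 named genes, 117 of 3252 gene and setting pairs changed sign, none of them past the threshold in either fit, and 50 passed it.

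The replicate numbers are shared by 6 loaded and contralateral pairs, of which 1 is 1 mouse by the title codes. Correlations of deviations for same-numbered pairs ran from -0.1 to 0.159. For the 5 pairs inferred to be 1 mouse they ran from -0.0096 to 0.159. With the number as a replicate block 0 genes passed at 2 weeks (565 at an unadjusted p under 0.05) and 0 at 1 week.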
